A study of Mus musculus with 28 samples.

Results

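The genes described here make fatty acids from sugar and assemble them into triglyceride. They were chosen as a list of 30 named genes, and all 30 were found, by gene name, among the 35275 genes of both deposited tables. The list holds 4 transcription factors and regulators (Srebf1, Mlxipl, Thrsp, Mid1ip1), 6 genes of sugar, citrate, acetyl-CoA and NADPH supply (Khk, Pklr, Slc25a1, Acly, Acss2, Me1), the carboxylases and the synthase (Acaca, Acacb, Fasn), 6 elongases and desaturases (Elovl2, Elovl5, Elovl6, Scd1, Fads1, Fads2), 3 acyl-CoA synthetases (Acsl1, Acsl3, Acsl5) and 8 genes of triglyceride assembly and the lipid droplet (Gpam, Agpat2, Agpat3, Lpin1, Lpin2, Dgat1, Dgat2, Pnpla3). RNA was sequenced from 28 libraries of FVB mice in 8 groups, and every mouse, controls included, carried floxed alleles of Ptk2, the gene of focal adhesion kinase (FAK). In the first experiment, without DDC, mice aged 6 to 8 weeks gave whole liver (tissue) or isolated hepatocytes, and FAKfl/fl;Alb-Cre- mice (WT) were compared with FAKfl/fl;Alb-Cre+ littermates (KO), with 4 libraries in each of the tissue WT, tissue KO, hepatocyte WT and hepatocyte KO groups. In the second, mice received 0.1% w/w DDC, a porphyrinogenic agent that injures bile ducts, in the diet for 4 to 8 weeks, and whole liver was sequenced with 3 libraries in each group. Bred WT and Bred KO mice had the same genotypes as above, whereas Virus WT and Virus KO mice were FAKfl/fl;Alb-Cre- and had been injected with the vector AAV8-TBG-Null (WT) or, to delete Ptk2, the vector AAV8-TBG-Cre (KO). The albumin promoter of Alb-Cre is active in fetal liver progenitors, so Ptk2 is lost from hepatocytes and bile duct cells, and the TBG promoter of the vector acts in hepatocytes. The age of mice given DDC, the hour at which livers were taken and whether food was withheld are not given in the sources used here. In the sample titles the number of each mouse given DDC ends in M, and those of the other mice carry no such letter. The sex of the mice is not described here.

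In the liver, glucose and fructose are broken down to pyruvate, mitochondria turn pyruvate into citrate, and exported citrate is cleaved to cytosolic acetyl-CoA. Acetyl-CoA is carboxylated to malonyl-CoA and built into palmitate, which is elongated, desaturated, activated to acyl-CoA and esterified step by step onto glycerol 3-phosphate. The program is driven after feeding by SREBP-1c, a product of Srebf1 that responds to insulin, and by ChREBP, the product of Mlxipl that responds to sugar. The lipins, made from Lpin1 and Lpin2, remove phosphate from phosphatidate to give diacylglycerol, the substrate of the last step, and in mouse liver Lpin1 is known to be induced by fasting and glucocorticoids.

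Promoters are shown for the 4 genes that passed the test for KO against WT over both DDC groups (Lpin1, Lpin2, Acss2 and Khk, described further on), as RefSeq places them on build GRCm38.p6. Each run covers the 250 bases before the transcription start, 5′ to 3′ on the strand of the gene, and capitals mark a match on either strand to 1 of the 5 motifs named after the sequences. They lie at chr12:16610967-16611216 (Lpin1, minus strand), chr17:71183282-71183531 (Lpin2, plus strand, the most upstream of 3 starts), chr2:155517793-155518042 (Acss2, plus strand) and chr5:30921309-30921558 (Khk, plus strand).
Lpin1: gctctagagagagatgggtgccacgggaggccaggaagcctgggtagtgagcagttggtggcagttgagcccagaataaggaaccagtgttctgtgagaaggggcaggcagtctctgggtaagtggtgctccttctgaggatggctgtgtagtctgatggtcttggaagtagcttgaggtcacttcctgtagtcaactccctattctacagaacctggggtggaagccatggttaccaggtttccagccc
Lpin2: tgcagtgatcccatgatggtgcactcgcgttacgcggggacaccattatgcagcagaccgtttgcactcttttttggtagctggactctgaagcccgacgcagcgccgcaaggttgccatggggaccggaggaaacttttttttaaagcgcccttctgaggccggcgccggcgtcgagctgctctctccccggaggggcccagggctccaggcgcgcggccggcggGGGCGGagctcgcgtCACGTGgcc
Acss2: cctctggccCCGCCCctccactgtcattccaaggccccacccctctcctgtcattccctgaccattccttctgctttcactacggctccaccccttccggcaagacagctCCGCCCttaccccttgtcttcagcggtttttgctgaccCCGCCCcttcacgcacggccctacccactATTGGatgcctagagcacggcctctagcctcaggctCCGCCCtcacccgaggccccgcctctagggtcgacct
Khk: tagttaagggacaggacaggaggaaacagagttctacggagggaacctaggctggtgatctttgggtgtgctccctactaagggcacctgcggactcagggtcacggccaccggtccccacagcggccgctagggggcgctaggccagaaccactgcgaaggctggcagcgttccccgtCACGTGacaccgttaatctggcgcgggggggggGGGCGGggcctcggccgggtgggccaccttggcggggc

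The 4 promoters differed in these letters. The motifs searched were the E-box, the site of ChREBP and other factors, the CCAAT box, the GC box, the sterol regulatory element bound by SREBP and the core of the glucocorticoid response element. The Lpin1 window held none of the 5 motifs, and its start lies outside the interval given for the gene in the deposited tables (chromosome 12, 16535669 to 16589770 of mm10). The Lpin2 window held an E-box that begins 9 bases before the start and a GC box at 24 bases, and the Khk window an E-box at 71 bases and a GC box at 38 bases. The Acss2 window held a CCAAT box at 73 bases and 4 GC boxes. Of the 30 genes, 26 had a promoter in the table. The E-box, CACGTG, was found for 5 of them (Elovl5, Khk, Lpin2, Mlxipl and Slc25a1), and in 6.02% of the 32851 mouse promoters of the same length. The sterol regulatory element, searched as TCACNCCAC, was found for Acsl1 and Mlxipl and in 1.05% of all promoters. The glucocorticoid core, searched as ACANNNTGT, was found for Mid1ip1 and in 5.84% of all promoters. The CCAAT box, searched by the letters of its name, was found for 16 genes and in 33.8% of all promoters. The GC box, GGGCGG, was found for 16 genes and in 32.7%. A gene with several starts had several windows to match, and a match is a stretch of letters, not a shown site.

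The libraries held 11162678 to 20428773 counts. Ptk2 lay at 3.65 to 6.67 FPKM (fragments scaled to gene length and to the library's total) in tissue WT and 1.17 to 1.45 FPKM in tissue KO, at 5.16 to 8.35 FPKM in Bred WT and 2.03 to 2.35 FPKM in Bred KO, and at 5.52 to 6.59 FPKM in Virus WT and 2.43 to 3.06 FPKM in Virus KO, so the labels held in each pair of groups. Hepatocyte WT and hepatocyte KO had 5.68 to 6.46 FPKM and 0.907 to 1.29 FPKM. Some libraries stood apart. Across genes, the deviation of a library from the mean of all libraries of its table followed gene length, with a Spearman coefficient, given as a description, of -0.53 to -0.35 in the 4 tissue KO livers and tissue WT replicates 1 and 3, and of 0.32 and 0.30 in tissue WT replicates 2 and 4. In isolated hepatocytes the markers of other cells were low but present. The 8 macrophage markers summed to 10.5 to 40.5 FPKM in hepatocytes and to 103 to 141 FPKM in tissue, and in hepatocyte WT the bile duct markers Krt7 and Cftr and in hepatocyte KO Krt7 and Muc1 were at 0. The 10 hepatocyte markers were expressed in all 28 libraries.

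**Figure D1:**
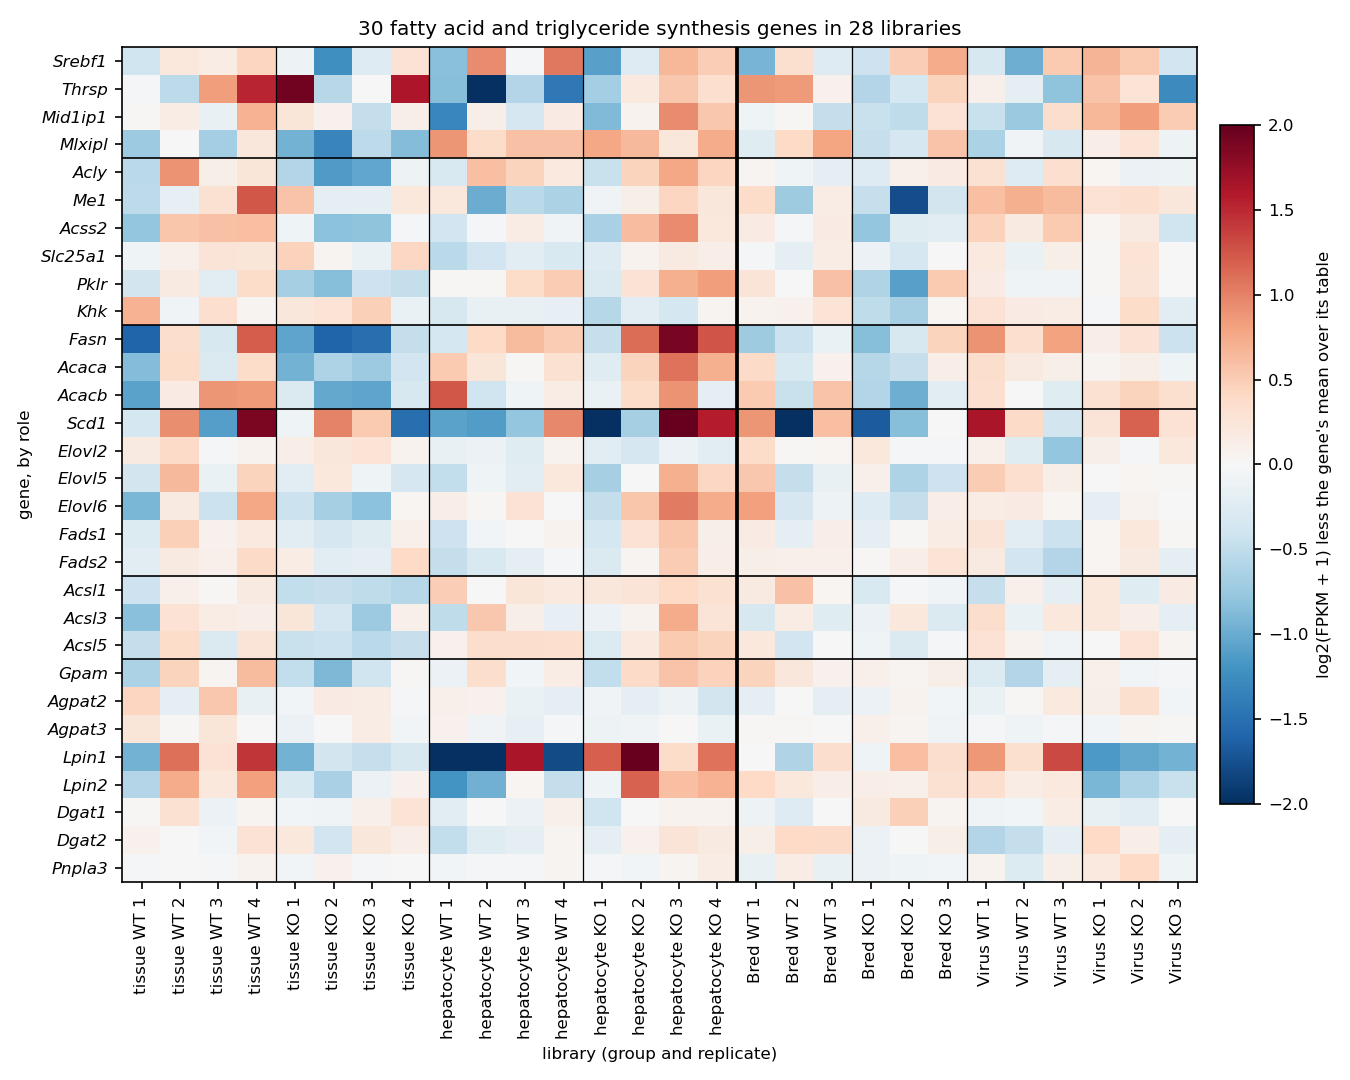
Level of 30 genes (rows, by role, with lines between roles) in 28 libraries (columns). Colour gives log2(FPKM + 1) less the gene's mean over its own table (16 libraries without DDC left of the thick line, 12 with DDC right of it), with the scale ended at 2 in each direction. Hepatocyte KO replicate 1 is mostly blue and replicate 3 mostly red, and Lpin1 is dark blue in 3 of 4 hepatocyte WT libraries.

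Levels per length were ranked within each group. Scd1, the stearoyl-CoA desaturase, ranked first by mean FPKM in 6 of 8 groups, with 517 ± 440 FPKM in tissue WT and 801 ± 564 FPKM in Virus WT (SD, n = 4 and 3). Thrsp, a small regulator of lipogenesis, ranked first in tissue KO at 439 ± 317 FPKM, and Acsl1, the main long-chain acyl-CoA synthetase of liver, in hepatocyte WT at 267 ± 37.3 FPKM. Khk (ketohexokinase) and Dgat2 (the diacylglycerol acyltransferase of the last step) ranked among the first 5 in every group, whereas Thrsp ranked 10 to 19 and Acsl1 12 to 16 in the groups given DDC. In tissue WT the libraries of Scd1, Khk, Thrsp and Dgat2 overlapped, so their order was not resolved there. Pnpla3, a lipid droplet protein, was last in every group, at 0 to 0.152 FPKM without DDC and 0.0703 to 0.71 FPKM with DDC, and its counts without DDC were too low to test.

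The genes differed in how far mice of 1 group lay apart. Scd1 ran from 54.5 to 1445 FPKM among hepatocyte KO libraries, a ratio of 26.5, and Lpin1 from 5.37 to 92 FPKM among hepatocyte WT libraries, a ratio of 17.1. Agpat3, an acylglycerophosphate acyltransferase, stayed within a ratio of 1.2 in each of the 8 groups. Many members were high or low in the same libraries. In hepatocyte KO, replicate 1 was the lowest of the 4 libraries for 23 of 30 genes and replicate 3 the highest for 23, with a median deviation from the group mean of -0.44 and 0.33 on the log2(FPKM + 1) scale. In tissue WT, replicate 1 was the lowest for 20 genes (median deviation -0.46) and replicate 4 the highest for 17 (0.32). In Bred KO, replicate 3 was the highest for 22 genes (0.15), and in Virus KO replicate 2 for 19 (0.11). The libraries of a group therefore did not scatter independently from gene to gene, and a group's mean over the list rests on few mice.

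In whole liver without DDC, KO was compared with WT to ask what loss of FAK from liver epithelium does before injury. No member passed the quasi-likelihood test of edgeR at an adjusted p under 0.05, where 0.00800% of all 12507 genes tested passed. At an unadjusted p under 0.05 there were 10 of the 29 genes tested, all with a lower estimate in KO, where 2017 of all 12507 genes were in either direction. DESeq2 called Acsl1, and its share over all genes is not given here. The estimates lay below 0 for 26 of 29 genes, with a median log2 change of -0.36, against 51.7% of all genes and a median of -0.01. These genes move together from mouse to mouse, so their number adds little to the evidence of any 1 of them. The trend with gene length was negative in all tissue KO livers and positive in tissue WT replicates 2 and 4. Fasn, Acaca and Acacb are long, with 9587, 9513 and 8788 bases. With this trend removed the test called 0.016% of all genes, and Fasn, Acly, Acsl1, Mlxipl, Acaca and Pklr were not among them. These genes were not called with the trend left in either, so this cannot show what part the trend had in their estimates.

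Fasn had the largest estimate in whole liver, followed by Lpin1, Acacb and Acly. Fasn, the fatty acid synthase, had 7.31, 30.9, 19.1 and 57.4 FPKM in the 4 tissue WT livers and 11.1, 7.25, 7.84 and 17 FPKM in the 4 tissue KO livers. The lowest WT liver lay among the KO livers, and its estimate was -1.38 on a log2 scale (standard error 0.50, adjusted p = 0.22). Acly, which cleaves citrate to acetyl-CoA, had 33.7, 93.3, 53.8 and 58.7 FPKM in WT and 32.8, 22, 23.5 and 46 FPKM in KO (log2 change -0.94, standard error 0.31, adjusted p = 0.192). Acaca, the cytosolic acetyl-CoA carboxylase, had 3.57, 9.82, 5.8 and 9.77 FPKM in WT and 3.34, 4.44, 4.06 and 5.43 FPKM in KO. In both genes WT replicate 1 was as low as the KO livers, and WT replicates 2 and 4 were among the highest. Acsl1 had 169, 243, 230 and 256 FPKM in WT and 159, 164, 158 and 152 FPKM in KO, so its groups did not overlap (log2 change -0.50, adjusted p = 0.179, exact permutation p = 0.0286, the smallest that 4 against 4 libraries allow). Pklr, the liver pyruvate kinase, had 25.4, 37.3, 28.4 and 42.8 FPKM in WT and 20.4, 17.9, 24.4 and 23.5 FPKM in KO, also without overlap. These were 2 of 29 genes, both lower in KO, where 5.32% of all genes had no overlap of FPKM (210 lower and 455 higher in KO). Without tissue WT replicate 1 the test called 6 genes lower, where it called 7.83% of all genes in either direction (Acly, Acaca, Fasn, Acsl1, Acacb and Mlxipl, Fasn at an adjusted p of 0.0363), and without tissue WT replicates 2 and 4 together it called none, with a log2 change of -0.34 for Fasn.

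Neither Srebf1 nor the other genes of the list passed in whole liver. Srebf1 had 54.8, 83.8, 80.3 and 98 FPKM in tissue WT and 67.4, 30.5, 60.2 and 88.4 FPKM in tissue KO (log2 change -0.36, adjusted p = 0.683). Scd1 had 237, 578, 140 and 1113 FPKM in WT and 283, 598, 433 and 105 FPKM in KO. In both genes the groups overlapped widely. Mlxipl had 9.78, 16.8, 10.1 and 19.9 FPKM in WT and 8.26, 6.09, 11.3 and 8.79 FPKM in KO (log2 change -0.70, adjusted p = 0.185). Lpin1 had 14.7, 63.7, 35.7 and 80.5 FPKM in WT and 14.6, 22.4, 21 and 23.2 FPKM in KO (log2 change -1.24, adjusted p = 0.422), and Lpin2 22.6, 58.1, 40.1 and 61.9 FPKM in WT and 27.6, 21.6, 31.6 and 36.5 FPKM in KO. WT replicates 2 and 4 were the highest for both lipins and replicate 1 lay among the KO livers. Acacb had 2.17, 6.48, 11.3 and 11 FPKM in WT and 4.46, 2.27, 2.19 and 4.31 FPKM in KO (log2 change -1.21, adjusted p = 0.23), and Acss2 14.3, 37.5, 38.4 and 38.9 FPKM in WT and 23.6, 13.8, 14.1 and 24.6 FPKM in KO. For both, replicate 1 was the only WT liver as low as the KO livers. Khk had 487, 286, 380 and 312 FPKM in WT and 349, 363, 419 and 273 FPKM in KO, and Dgat2 309, 294, 280 and 356 FPKM in WT and 337, 224, 340 and 318 FPKM in KO, with wide overlap.

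In isolated hepatocytes no member passed the test, where 0.320% of all genes did. WT and KO libraries with adjacent numbers in their titles deviated together, and this test did not pair them. At an unadjusted p under 0.05 there were 3 of 29 genes, all with a higher estimate in KO, where 1119 of all 12507 genes were in either direction. DESeq2 called Lpin2 higher, and its share over all genes is not given here. The estimates lay above 0 for 19 of 29 genes, with a median of 0.23 against -0.01 over all genes. Every member's groups overlapped, where 6.92% of all genes had no overlap (192 lower and 674 higher in KO). Lpin2 had 14.4, 17.3, 35.5 and 24.5 FPKM in hepatocyte WT and 32.3, 79.7, 52.5 and 56.7 FPKM in hepatocyte KO, and 1 WT library reached above the lowest KO library (log2 change 1.20, standard error 0.32, adjusted p = 0.171).

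For Lpin1, 1 hepatocyte WT library stood apart from the other WT libraries. It had 5.46, 5.37, 92 and 7.69 FPKM in hepatocyte WT and 67.8, 136, 37.9 and 63.2 FPKM in hepatocyte KO. With WT replicate 3 the log2 change was 1.37 (standard error 0.76, adjusted p = 0.654), and without it 3.56 (adjusted p = 0.00489). WT replicate 3 and KO replicate 2, the highest KO library, carry adjacent numbers in the sample titles. Their deviations from the group means correlated at 0.305 across genes. Leaving out WT replicate 3 alone parts these libraries, and no fit paired by title was run. WT replicate 3 was also high in genes that fasting and glucocorticoids are known to induce. Pck1, the gluconeogenic carboxykinase, had 1403 FPKM there and 260, 293 and 507 FPKM in the other WT libraries, and G6pc, the glucose 6-phosphatase, had 416 FPKM against 116, 114 and 86.4 FPKM. Tat, the tyrosine aminotransferase, had 1136 FPKM against 292, 564 and 442 FPKM. In hepatocyte KO, Pck1 had 1202, 1313, 639 and 709 FPKM, Tat 1013, 1284, 613 and 580 FPKM, and G6pc 440, 220, 102 and 140 FPKM. All 4 KO libraries exceeded the 3 low WT libraries for Pck1 and Tat, whereas for G6pc KO replicate 3 lay among them. The part of these genes' levels in the Lpin1 result was not tested.

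The lipogenic enzymes of hepatocytes had wide groups. Fasn had 18.6, 32.2, 37.7 and 34.6 FPKM in WT and 17.3, 53.5, 92.5 and 58.8 FPKM in KO (log2 change 0.79, adjusted p = 0.702). Scd1 had 143, 138, 176 and 588 FPKM in WT and 54.5, 190, 1445 and 901 FPKM in KO. Thrsp had 113, 40.5, 136 and 75.6 FPKM in WT and 128, 235, 298 and 258 FPKM in KO (log2 change 1.26, adjusted p = 0.489). For all 3 the lowest KO library was replicate 1, which lay among the WT libraries for Thrsp and below all 4 for Fasn and Scd1. Srebf1 had 40.2, 140, 70.7 and 151 FPKM in WT and 33.8, 60.4, 115 and 103 FPKM in KO. Acacb had 14.7, 4.04, 5.24 and 6.4 FPKM in WT and 5.04, 7.62, 11.4 and 4.83 FPKM in KO, and Acss2 19.1, 24.7, 28.2 and 23.9 FPKM in WT and 15.8, 39.3, 49.3 and 29.3 FPKM in KO. Khk had 241, 271, 269 and 268 FPKM in WT and 201, 256, 234 and 312 FPKM in KO, and Dgat2 206, 246, 258 and 301 FPKM in WT and 256, 309, 349 and 331 FPKM in KO. In all of these the groups overlapped. Acaca had 11, 8.89, 7.5 and 9.28 FPKM in WT and 6.09, 10.4, 16.7 and 12.6 FPKM in KO, and Acly 39.9, 75.4, 67.5 and 56.9 FPKM in WT and 36.2, 67.8, 85.8 and 67.3 FPKM in KO, both lowest and highest in KO replicates 1 and 3. Pklr had 33.5, 33.4, 42.7 and 47.1 FPKM in WT and 26.7, 40.7, 54.5 and 59.7 FPKM in KO. Acsl1 and Mlxipl had log2 changes of -0.02 and -0.08.

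The difference between the genotype effects in hepatocytes and in tissue was tested as an interaction. No member passed, and 0% of all genes did, while DESeq2, whose share over all genes is not given here, called Lpin2. At an unadjusted p under 0.05 there were 9 of 29 genes, where 1002 of all 12507 genes were. The estimates were above 0, that is a higher KO less WT change in hepatocytes, for 24 of 29 genes, with a median of 0.63 against 0.00 over all genes. Among lists described further on, all 13 feeding and fasting genes were above 0 (median 0.86). Of 20 genes that control SREBP-1c and ChREBP, 10 were (median 0.04). The member estimates were 1.83 for Lpin2 (adjusted p = 0.336) and 2.18 for Fasn (adjusted p = 0.555). With both materials pooled no member passed, where 0.0253% of all genes did, and DESeq2 called none. No member had an unadjusted p under 0.05 there, where 704 of the 11857 genes tested had.

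**Figure D2:**
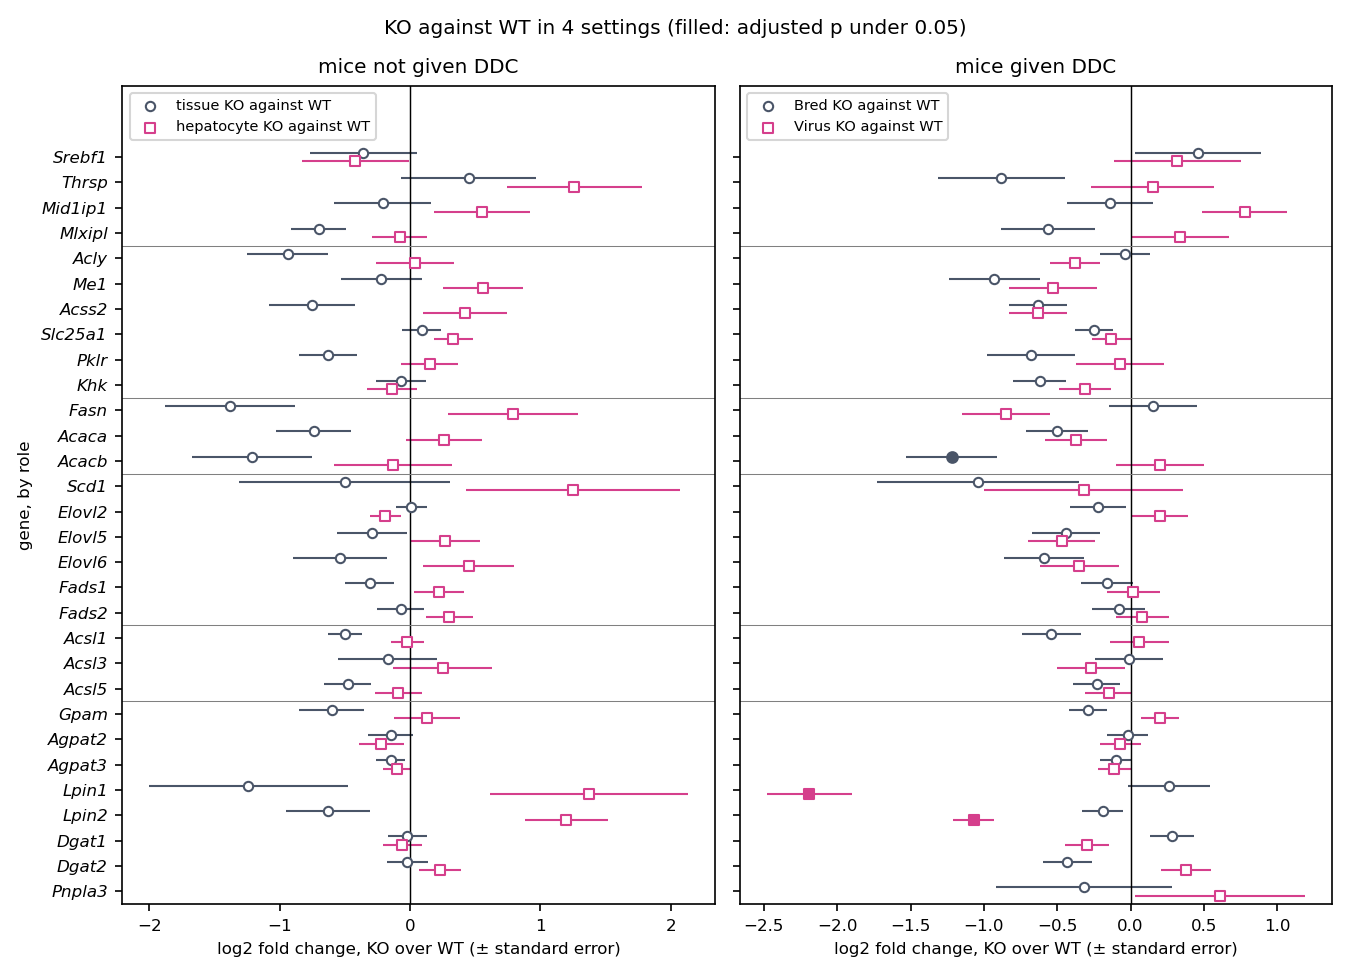
Log2 fold change of KO over WT with its standard error for each gene, in mice not given DDC (left: tissue as circles, hepatocytes as squares) and given DDC (right: Bred as circles, Virus as squares). Filled symbols passed the test. Without DDC no symbol is filled, and with DDC Acacb in Bred livers and Lpin1 and Lpin2 in Virus livers are, all below 0.

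Isolated hepatocytes were compared with whole liver within each genotype, which shows how far the levels in liver are those of hepatocytes after isolation. In WT, 1 member rose and 3 fell, where 9.81% of all genes were called higher and 15.6% lower. In KO, 10 rose and 2 fell, where 20.2% were called higher and 23.9% lower. The correlation with gene length was 0.13 to 0.47 in the 8 hepatocyte libraries, and with this trend removed the calls of Slc25a1 and Thrsp in WT and of Lpin2 and Khk in KO were lost.

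Mlxipl was the only member called in the same direction in both genotypes. It had 31.6, 21.8, 25.8 and 25.8 FPKM in hepatocyte WT, above the 9.78 to 19.9 FPKM of tissue WT, and 29.4, 26.9, 19.9 and 28.7 FPKM in hepatocyte KO, above the 6.09 to 11.3 FPKM of tissue KO. Its log2 change was 0.95 in WT (standard error 0.21, edgeR adjusted p = 0.00719) and 1.57 in KO (standard error 0.21, adjusted p = 0.000133). Thrsp, Slc25a1 (the mitochondrial citrate carrier) and Lpin2 fell in WT hepatocytes. Thrsp had 40.5 to 136 FPKM in hepatocyte WT and 143 to 591 FPKM in tissue WT (log2 change -1.76, adjusted p = 0.0248). Of 23 alternatives the call was lost under 5 for Thrsp, 9 for Slc25a1 and 13 for Lpin2.

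In KO mice Fasn, Acaca and 8 other genes were higher in hepatocytes. Fasn rose by 2.36 in log2 units (standard error 0.52, adjusted p = 0.00202), with 17.3 FPKM in the lowest hepatocyte library and 17 FPKM in the highest liver. Acaca rose by 1.40, Pklr by 1.06, Acly by 1.04 and Elovl6, which elongates palmitate, by 1.14. Acsl1 had 265, 269, 296 and 277 FPKM in hepatocytes and 152 to 164 FPKM in liver (log2 change 0.78, standard error 0.13, adjusted p = 0.000375). Acsl5, Gpam (the glycerol 3-phosphate acyltransferase) and Lpin2 rose by 0.72, 0.69 and 0.90, and Elovl2, an elongase of polyunsaturated acids, and Khk fell by 0.43 and 0.51. Lpin2 was thus called lower in WT hepatocytes and higher in KO hepatocytes, while the interaction of material and genotype did not pass. Without tissue WT replicates 2 and 4 the WT comparison called 7 members, where it called 38.0% of all genes, and Lpin2 had a log2 change of -0.41 (adjusted p = 0.409). With the length trend removed Khk had a log2 change in KO of -0.00. Of 23 alternatives the KO call was lost under 9 for Khk, 7 for Gpam, 6 for Lpin2 and 2 for Elovl6, and under none for the other 8 members called.

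**Figure D3:**
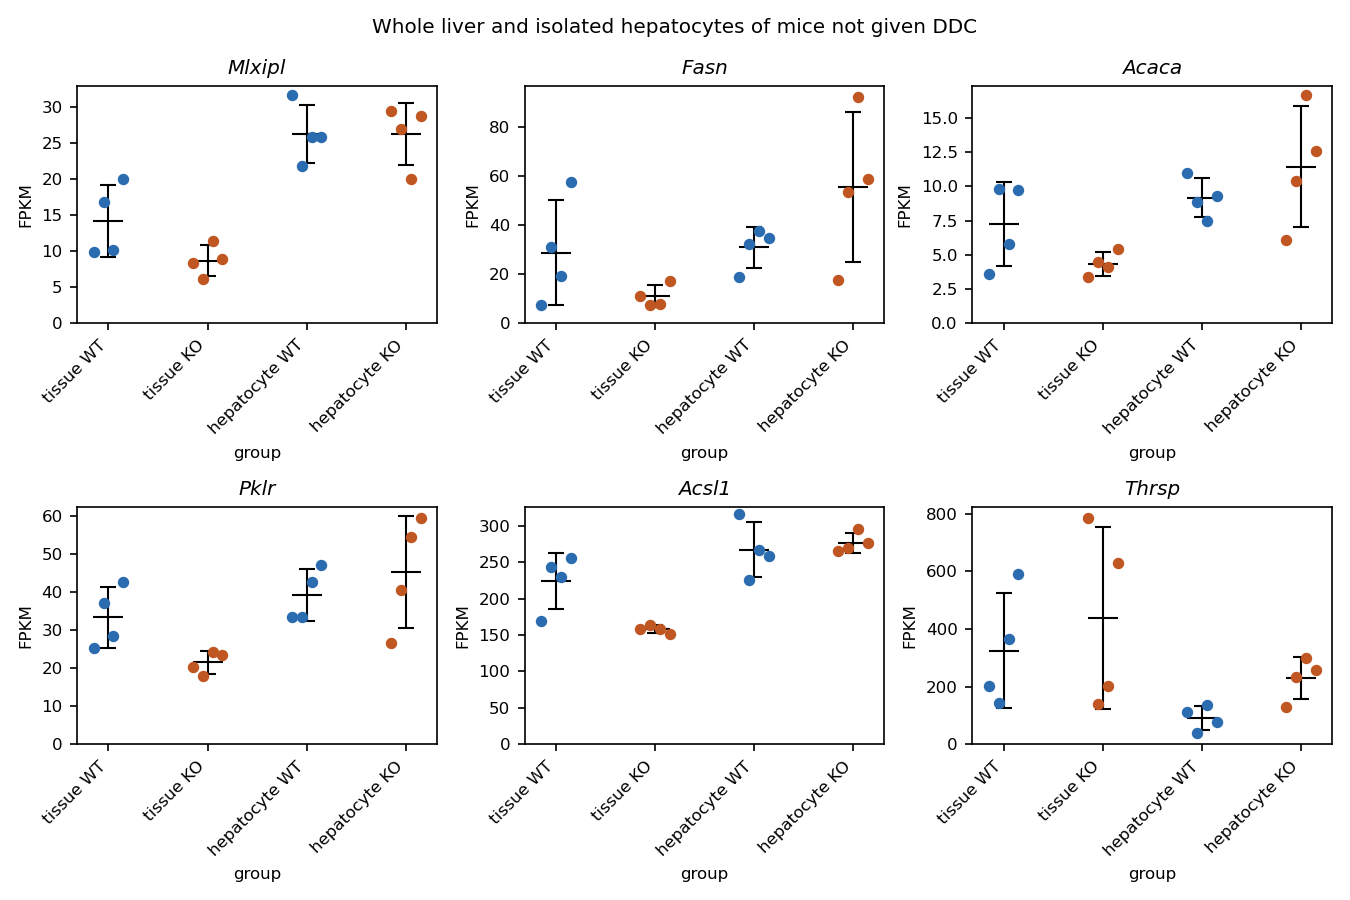
FPKM of 6 genes in each library of mice not given DDC (points; blue WT, orange KO), with the group mean and SD (black). Mlxipl is higher in hepatocytes of both genotypes, and Thrsp spans 143 to 591 FPKM in tissue WT and 40.5 to 136 FPKM in hepatocyte WT.

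In livers given DDC, deletion by Alb-Cre was compared with littermate controls. In Bred mice 1 member fell and none rose, where 3.08% of all genes were called lower and 3.17% higher. It was Acacb, the carboxylase at the outer mitochondrial membrane whose malonyl-CoA restrains fatty acid import. Acacb had 6.42, 2.78 and 6.6 FPKM in Bred WT and 2.41, 1.61 and 3.42 FPKM in Bred KO, and 1 WT liver lay among the KO livers (log2 change -1.22, standard error 0.31, edgeR adjusted p = 0.0365). The call was lost with limma on log2(FPKM + 1) and without any of 7 libraries (Bred WT 1 or 3, Bred KO 1 or 2, or Virus KO 1, 2 or 3). It was also lost in a fit of the Bred livers alone (adjusted p = 0.153), but that fit called 0% of all genes and so cannot judge Acacb. The estimates lay below 0 for 26 of 30 genes, with a median of -0.27 against 50.9% and -0.01 over all genes.

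Livers with the same replicate number deviated together in Bred mice, and with the number as a block 5 of 30 members fell, where 12.4% of all genes were called in either direction. These were Acacb (log2 change -1.17, adjusted p = 0.00833), Me1 (-0.97, adjusted p = 0.00532), Khk (-0.65, adjusted p = 0.0228), Pklr (-0.81, adjusted p = 0.0232) and Mlxipl (-0.58, adjusted p = 0.0455). Without the block the last 4 had adjusted p values of 0.0856, 0.0548, 0.181 and 0.31. Me1, the malic enzyme that makes NADPH, had 41.1, 19 and 35.1 FPKM in Bred WT and 22.6, 8.53 and 24.3 FPKM in Bred KO. Khk had 202, 206 and 234 FPKM in Bred WT and 136, 121 and 198 FPKM in Bred KO, without overlap. Pklr had 49.9, 41.5 and 62.8 FPKM in WT and 27, 18.9 and 60 FPKM in KO, and Mlxipl 4.77, 7.95 and 10.8 FPKM in WT and 3.93, 4.37 and 9.12 FPKM in KO, each lower in KO within every number. Khk, Acss2, Acsl1 and Dgat2 lay wholly lower and Dgat1 wholly higher in KO on FPKM, which is 5 of 30 genes where 23.9% of all genes had no overlap (791 lower and 2540 higher).

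The groups of Fasn, Srebf1, Acly, Scd1 and Acaca overlapped in Bred livers. Fasn had 19.7, 24.1 and 29.9 FPKM in WT and 17.7, 26.2 and 45.1 FPKM in KO. Srebf1 had 24.3, 59.2 and 39.5 FPKM in WT and 35.4, 67.3 and 80.3 FPKM in KO, and Acly 52.7, 47.4 and 44.7 FPKM in WT and 42.4, 54.1 and 56.6 FPKM in KO. Scd1 had 853, 88.9 and 702 FPKM in WT and 145, 257 and 465 FPKM in KO (log2 change -1.04, standard error 0.69, adjusted p = 0.378). Bred WT replicate 2 was the lowest library of both groups for Scd1. Acaca had 14, 8.24 and 11.1 FPKM in WT and 6.74, 7.28 and 11.6 FPKM in KO, while Dgat2, without overlap, had 175, 189 and 207 FPKM in Bred KO against 208, 252 and 248 FPKM in Bred WT (log2 change -0.43, adjusted p = 0.134).

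In Virus mice the lipins fell. Here 2 members passed as lower and none as higher, where 1.25% of all genes were called lower and 1.41% higher. Lpin1 had 37.4, 25.3 and 51.5 FPKM in Virus WT and 8.56, 9.37 and 10 FPKM in Virus KO. Every KO liver lay well below every WT liver, and Lpin1 fell by 2.19 in log2 units (standard error 0.29, adjusted p = 0.00305 by edgeR, exact permutation p = 0.1, the smallest that 3 against 3 libraries allow). Lpin2 had 53.1, 46.3 and 48 FPKM in Virus WT and 21.6, 26.9 and 30.5 FPKM in Virus KO (log2 change -1.07, standard error 0.14, adjusted p = 0.00267). Both calls held under all 19 alternatives tried for each, with log2 changes of -2.41 to -1.87 for Lpin1 and -1.17 to -0.89 for Lpin2.

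**Figure D4:**
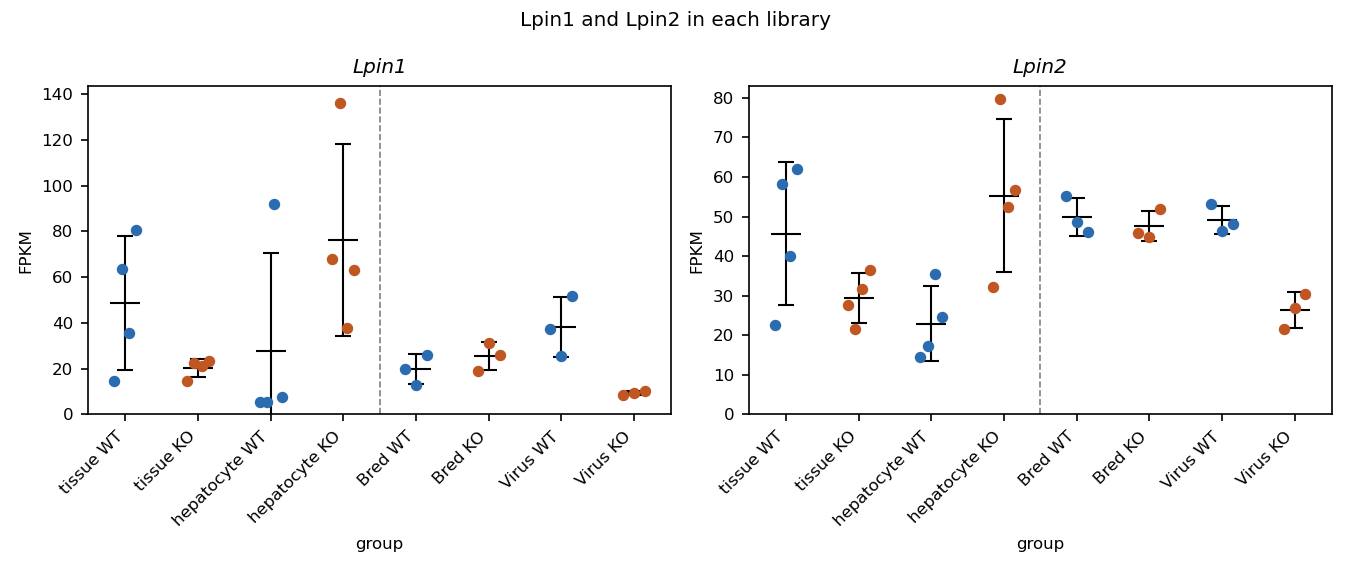
FPKM of Lpin1 and Lpin2 in each library (points; blue WT, orange KO), with the group mean and SD (black); a dashed line parts mice not given DDC (left) from mice given DDC (right). Virus KO livers have 8.56 to 10 FPKM of Lpin1 against 25.3 to 51.5 FPKM in Virus WT, and 1 hepatocyte WT library lies at 92 FPKM, far from the other 3.

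The remaining genes of Virus livers were closer. Fasn had 62.1, 41.6 and 58.2 FPKM in WT and 36, 40.3 and 24.3 FPKM in KO, without overlap (log2 change -0.85, adjusted p = 0.153). Acss2, which makes acetyl-CoA from acetate, had 21.7, 17.5 and 22.7 FPKM in WT and 15.8, 17.5 and 11.4 FPKM in KO (log2 change -0.63, adjusted p = 0.113). In a fit of the Virus livers alone these genes, Me1 and Elovl5 were called lower too (Fasn adjusted p = 0.0331, Acss2 adjusted p = 0.0451), 6 members in all, where that fit called 9.72% of all genes in either direction. Mid1ip1, which promotes polymerisation of the acetyl-CoA carboxylases, had 8.03, 6.35 and 14.6 FPKM in WT and 18.4, 20.9 and 16.5 FPKM in KO (log2 change 0.78, adjusted p = 0.163). In all, 10 of 30 genes had no overlap on FPKM, 7 lower and 3 higher in Virus KO, where 36.3% of all genes had none (909 lower and 4152 higher). FPKM is scaled to the library's total, whereas the test uses TMM factors, by which 6854 of all genes had a lower and 7100 a higher estimate. Acacb, the gene called in Bred livers, had 5.51, 4.09 and 3.34 FPKM in Virus WT and 5.37, 6 and 5.39 FPKM in Virus KO (log2 change 0.20). Srebf1, with 37.6, 23.5 and 68.8 FPKM in WT and 76.7, 68.4 and 35.9 FPKM in KO, Scd1, with 1437, 606 and 359 FPKM in WT and 550, 1047 and 566 FPKM in KO, and Mlxipl, with 3.37, 5.5 and 4.45 FPKM in WT and 6.42, 7.17 and 5.3 FPKM in KO, overlapped between the genotypes. Dgat2 had 127, 137 and 168 FPKM in WT and 251, 210 and 168 FPKM in KO (log2 change 0.38, adjusted p = 0.24), Pklr 46.5, 38.7 and 39.5 FPKM and 42.2, 49.4 and 41.7 FPKM, Acly 63, 42.4 and 64.2 FPKM and 52, 46.4 and 47.1 FPKM, and Acaca 13.6, 12 and 11.4 FPKM and 10.9, 11.4 and 9.8 FPKM.

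Over both methods of deletion 4 members fell and none rose, where 3.15% of all genes were called lower and 3.26% higher. Lpin2 fell by 0.63 (standard error 0.10, edgeR adjusted p = 0.00685), Lpin1 by 0.96 (standard error 0.20, adjusted p = 0.019), Acss2 by 0.63 (standard error 0.14, adjusted p = 0.0238) and Khk by 0.47 (standard error 0.13, adjusted p = 0.0461). For the lipins this mean is that of unlike effects, given next. Acss2 had the same estimate, -0.63, in Bred and in Virus livers, and 17.3, 14.9 and 17.3 FPKM in Bred WT against 8.57, 12.8 and 13.1 FPKM in Bred KO. Khk had 235, 216 and 215 FPKM in Virus WT and 187, 248 and 166 FPKM in Virus KO, where 1 KO liver was the highest. With the replicate number as a block 7 members fell, where 12.5% of all genes were called in either direction, the same 4 and Me1 (adjusted p = 0.00297), Elovl5 (adjusted p = 0.0192) and Acacb (adjusted p = 0.0403). The Khk call was lost without any of 10 of the 12 libraries (highest adjusted p = 0.11, without Virus KO replicate 1), and the Acss2 call without Virus WT 1 or 3 or Virus KO 1 or 3 (adjusted p of 0.0518 to 0.0576). The Lpin1 call was lost without Virus KO replicate 1 (adjusted p = 0.0532).

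The genotype effects of the 2 methods differed for the lipins. In the test of the difference, Bred less Virus, 2 members were called, both higher, where 3.21% of all genes were called in either direction. The difference was 2.46 for Lpin1 (standard error 0.40, edgeR adjusted p = 0.00891) and 0.88 for Lpin2 (standard error 0.19, adjusted p = 0.0315). In Bred livers Lpin1 had 20, 12.9 and 26 FPKM in WT and 18.9, 31.1 and 25.9 FPKM in KO, and Lpin2 55.1, 48.5 and 46 FPKM in WT and 45.9, 44.8 and 51.9 FPKM in KO, with groups that overlapped. The Lpin1 call held under all 18 alternatives, and that of Lpin2 was lost under 8, each the loss of 1 library (highest adjusted p = 0.0936). Acacb and Dgat2, whose estimates had opposite signs in the 2 methods, had adjusted p values of 0.0992 and 0.0879 for the difference.

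Both the WT groups and the KO groups differed between the methods. In WT mice 2 members were higher and 2 lower in Virus than in Bred livers, where 7.96% of all genes were called higher and 8.45% lower. Fasn was higher by 1.17 (standard error 0.30, adjusted p = 0.0208) and Lpin1 by 0.99 (standard error 0.28, adjusted p = 0.0312). Dgat2 had 208, 252 and 248 FPKM in Bred WT and 127, 137 and 168 FPKM in Virus WT (log2 change -0.68, standard error 0.17, adjusted p = 0.0163), and Gpam had 32.2, 27.7 and 25 FPKM and 19.2, 15.2 and 20.4 FPKM (log2 change -0.60, standard error 0.13, adjusted p = 0.0105). In KO mice only the lipins were called, both lower in Virus, by 1.47 for Lpin1 (adjusted p = 0.0206) and by 0.86 for Lpin2 (adjusted p = 0.0103), where 1.27% of all genes were called lower and 1.76% higher. The WT calls of Fasn and Lpin1 were each lost without Bred WT replicate 1 or 2 or Virus WT replicate 1 or 3 (highest adjusted p of 0.0757 and 0.142), and that of Dgat2 without Virus WT replicate 1 or 2. The KO call of Lpin1 was lost without Bred KO replicate 2 or any Virus KO library (highest adjusted p = 0.0939), and that of Lpin2 without Virus KO replicate 1 (adjusted p = 0.0542). With all libraries, the Lpin1 estimate was higher in Virus WT than in Bred WT and lower in Virus KO than in Bred KO. On FPKM the WT groups overlapped for Lpin1 (12.9 to 26 in Bred WT, 25.3 to 51.5 in Virus WT), and the KO groups did not. Lpin2 was alike in Bred WT and Virus WT (log2 change 0.01, standard error 0.14).

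Some genes of feeding, fasting and the daily clock also passed in Virus KO. Of 13 feeding and fasting genes 4 fell in Virus KO (Igfbp1, Pdk4, Pck1 and Ehhadh) and none rose, where 1.25% of all genes were called lower and 1.41% higher. The median log2 change of the 13 genes was -1.13, against 0.01 over all genes. Igfbp1, a secreted protein that insulin represses, had 1062, 254 and 967 FPKM in Virus WT and 13.7, 24.9 and 28.5 FPKM in Virus KO (log2 change -5.25, standard error 0.87, edgeR adjusted p = 0.011). Pck1 had 656, 546 and 636 FPKM in Virus WT and 283, 133 and 180 FPKM in Virus KO (adjusted p = 0.028). In Bred livers Igfbp1 had 6.66, 45.5 and 25.3 FPKM in WT and 68, 186 and 26.8 FPKM in KO, Pck1 547, 659 and 337 FPKM and 683, 1262 and 525 FPKM, and no gene of the list passed. Igfbp1, Pck1 and Tat were called higher in the difference Bred less Virus, as the lipins were, with 7.04 for Igfbp1. Of all genes 3.21% were called there in either direction.

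Of 15 clock genes 2 fell in Virus KO (Per1 and Nfil3) and 1 rose (Hlf), where 1.25% of all genes were called lower and 1.41% higher. Per1, a period gene that glucocorticoids also induce, had 13, 8.5 and 8.96 FPKM in Virus WT and 6.31, 4.01 and 3.78 FPKM in Virus KO. Nfil3, a repressor of the clock's output genes, had 25.5, 13.2 and 32.7 FPKM and 5.41, 7.25 and 7.12 FPKM. Dbp, an output gene with a strong daily rhythm in mouse liver, had 8.26, 17.3 and 4.85 FPKM in Virus WT, 66.1, 42 and 40.7 FPKM in Virus KO and 39.4, 47 and 75.1 FPKM in Bred WT. Between the WT groups Dbp, Hlf, Per3 and Tef were lower and Nfil3 higher in Virus livers, where 8.45% of all genes were called lower and 7.96% higher. The part of food intake and of the hour of collection in the lipin result was not tested, and in these groups neither can be told apart from genotype.

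Other genes of the pathway were taken from 5 lists of neighbouring enzymes and regulators. In the mice without DDC none of these genes passed in the genotype comparisons. With DDC, 3.08% of all genes were called lower and 3.17% higher in Bred KO, and 1.25% and 1.41% in Virus KO. Over both methods the shares were 3.15% and 3.26%. Among 14 other genes of glycerolipid assembly, 3 fell in Bred KO and none rose, and the same count held over both methods. Chpt1, a cholinephosphotransferase that turns diacylglycerol into phosphatidylcholine, had 37.1, 31.2 and 23.8 FPKM in Bred WT and 18.1, 13.6 and 17.5 FPKM in Bred KO (log2 change -1.03, standard error 0.17, edgeR adjusted p = 0.00847). Gpat3, another glycerol 3-phosphate acyltransferase, and Pcyt1a, which makes CDP-choline, fell by 0.71 and 0.49. Among 18 genes of sugar supply and NADPH, 3 fell in Bred KO. Idh1, a cytosolic source of NADPH, had 249, 169 and 177 FPKM in Bred WT and 164, 97.4 and 131 FPKM in Bred KO (adjusted p = 0.0297), and Slc2a5, a fructose transporter, and Pdha1, a subunit of pyruvate dehydrogenase, fell by 1.26 and 0.47. Among 12 genes of triglyceride breakdown and export, Apob, the main protein of secreted lipoproteins, fell by 0.77 in Bred KO, and G0s2, an inhibitor of triglyceride lipase, rose in Virus KO (4.2, 7.69 and 1.1 FPKM in WT, 37.1, 31.1 and 36.2 FPKM in KO, adjusted p = 0.0167) and Ces1g fell. Among 20 genes that control SREBP-1c and ChREBP, Akt1 rose by 0.49 in Bred KO and Pik3r1 by 0.76 in Virus KO, and none fell in either. None of the 8 tested genes of elongation and desaturation passed in Bred or Virus livers, and Hacd3 and Elovl7 fell over both methods.

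Some markers of stellate cells and of hepatocytes passed for genotype in livers given DDC, and no marker of bile duct cells, macrophages, endothelial cells or lymphocytes did in Bred or Virus. The 8 stellate cell and fibroblast markers summed to 146 to 227 FPKM in Bred WT and 349 to 414 FPKM in Bred KO, and to 158 to 207 FPKM in Virus WT and 230 to 304 FPKM in Virus KO. The sums did not overlap in either method, but of 13955 genes 2540 lay wholly higher in Bred KO and 4152 in Virus KO on FPKM. In the TMM-scaled test 3 of the 8 markers rose in Bred KO (Col3a1, Des and Pdgfrb), where 3.17% of all genes were called higher. In Virus KO 1 rose (Lrat), where 1.41% were. The 10 hepatocyte markers summed to 34819 to 38226 FPKM in Bred WT and 37430 to 50501 FPKM in Bred KO, and to 26796 to 32519 FPKM in Virus WT and 30546 to 32401 FPKM in Virus KO. Of these, 3 fell in Bred KO, Ttr, Serpina1c and Apob, where 3.08% of all genes were called lower. The macrophage markers summed to 667 to 962 FPKM in Bred WT, 715 to 1033 FPKM in Bred KO, 898 to 997 FPKM in Virus WT and 1127 to 1520 FPKM in Virus KO. In the TMM-scaled test of Virus KO against WT, however, 6 of these 8 markers had a lower estimate, with a median of -0.35, and none passed. In bulk liver fewer hepatocytes and less RNA of a gene per hepatocyte cannot be told apart, and the part of these markers in the members' changes was not tested.

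The livers given DDC were set beside the livers without DDC as a description only, since they came from separate experiments and tables and DDC cannot be told apart from the experiment. Of the 30 genes, 9 had every Bred WT liver below every tissue WT liver and 3 had every liver above, on FPKM, where 8.32% of all genes lay below and 34.4% above. In KO, 11 lay below and 5 above, where 13.7% and 47.2% of all genes did. Over all genes the median of the log2 ratio was 0.22 in WT and 0.31 in KO, and over the members -0.44 and -0.20. On TMM-scaled counts, where the medians over all genes were 0.01 and 0.06, 17 members lay below and 2 above in WT (17.3% and 22.0% of all genes), and 14 below and 1 above in KO (27.4% and 31.9% of all genes).

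**Figure D5:**
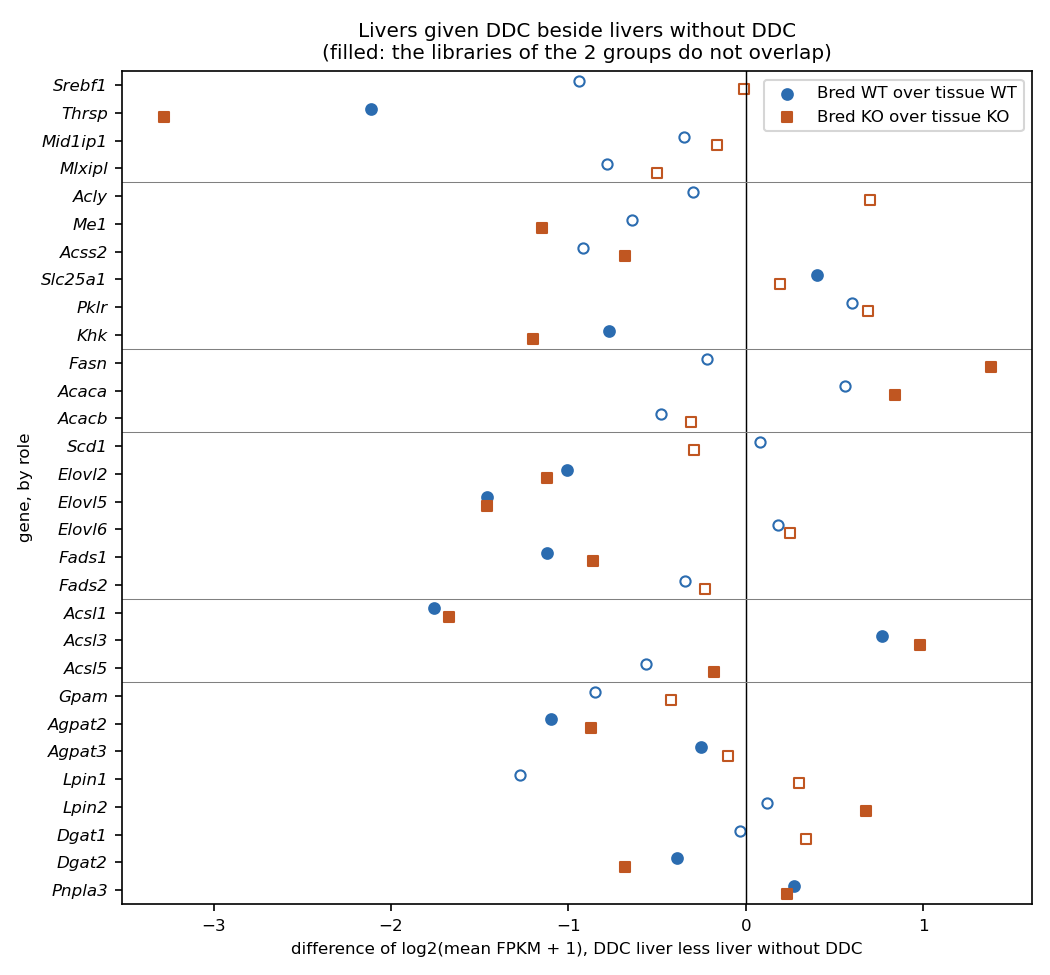
Difference of log2(mean FPKM + 1) between livers given DDC and livers without DDC for each gene, in WT (blue circles) and KO (orange squares). Filled symbols mark genes whose libraries do not overlap between the 2 groups. Acsl1, Elovl5, Thrsp and 5 other genes are filled and below 0 in both genotypes, and Acsl3 and Pnpla3 are filled and above 0 in both.

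The 8 genes below in both genotypes were Thrsp, Khk, Elovl2, Elovl5, Fads1, Acsl1, Agpat2 and Dgat2. All 8 also lay below in Virus WT livers, set beside the same tissue WT livers, where 14.6% of all genes lay below. The share of all genes below in several of these comparisons was not counted, so the 8 genes are named as a description only. The 10 hepatocyte markers summed to 42663 to 53347 FPKM in tissue WT and 34819 to 38226 FPKM in Bred WT, but overlapped in KO (37040 to 46118 and 37430 to 50501 FPKM). Macrophage markers summed to 103 to 134 FPKM in tissue WT and 667 to 962 FPKM in Bred WT. The part of cell composition in these differences was not tested. Acsl1 had 60.9, 80.8 and 55.2 FPKM in Bred WT, where tissue WT had 169 to 256 FPKM, a ratio of the means of 0.292. Thrsp had 88, 85.7 and 49.8 FPKM in Bred WT, where tissue WT had 143 to 591 FPKM. Elovl5 and Fads1, which make polyunsaturated fatty acids, had ratios of 0.362 and 0.456, and Agpat2, the main hepatic acylglycerophosphate acyltransferase, 0.464. Acsl3 and Pnpla3 lay above in both genotypes on FPKM, where Pnpla3 had 0 to 0.104 FPKM in tissue KO and 0.19 to 0.255 FPKM in Bred KO. Acsl3, an acyl-CoA synthetase of lipid droplets, had 4.17, 6.18 and 4.49 FPKM in Bred WT and 0.953 to 3.25 FPKM in tissue WT, a ratio of 1.99. Fasn, Acaca and Lpin2 lay above in KO alone on FPKM, where Fasn had 17.7 to 45.1 FPKM in Bred KO and 7.25 to 17 FPKM in tissue KO. On TMM-scaled counts only 1 of the 30 genes lay above in KO. At most 1 of the 5 genes above on FPKM, Acsl3 and Pnpla3 included, therefore did so there. Srebf1, Mlxipl, Mid1ip1, Acly, Pklr, Acacb, Scd1, Elovl6, Fads2, Gpam, Dgat1 and Lpin1 overlapped between the experiments in both genotypes.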

How the data were processed

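RNA of 28 libraries was sequenced, and per the labels and the study's methods reads were aligned with STAR to mouse build mm10. The authors deposited whole-number counts per gene made with HTSeq 0.6.1, beside FPKM that the authors computed from those counts, in 1 table without DDC (16 libraries) and 1 with DDC (12 libraries). FPKM recomputed from the counts and gene lengths differed by at most 4.98e-10 percent. Groups came from the labels. Where the labels do not state separate animals, p-values measure only the spread between samples.

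Counts were tested in R 4.3.3 with the quasi-likelihood test of edgeR 4.0.16 (TMM factors, a count of at least 10 and a total of at least 15 by filterByExpr, 1 coefficient per group), separately per table, with Benjamini-Hochberg adjustment over all 12507 or 13955 genes tested and a threshold of 0.05. The script was tested on simulated data. Single values were compared by exact two-sided permutation of log2(CPM + 1), and overlap of groups was read from FPKM. Alternatives were DESeq2 1.42.0, its size factors, no filter, limma 3.58.1 on log2(FPKM + 1), a replicate block, no filter on low FPKM and TMM scaling for the livers with and without DDC, the libraries of 1 material or method alone and leaving out each library. Removal of the trend with gene length and the loss of tissue WT replicates 2 and 4 together were chosen after seeing the data.

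The members and lists were chosen with earlier results of these data known. Named with values in every library were the members called in a genotype comparison and Srebf1, Fasn, Scd1, Acaca, Acly, Dgat2, Mlxipl and Pklr, and, from the other lists, the called genes with the smallest p, and Tat, G6pc, Dbp, Per3 and Tef, and the library values of further members, were chosen after their values were seen. Same-numbered Bred libraries deviated together (correlations of 0.362, 0.348 and 0.386, other pairs -0.298 to -0.071), so blocked values stand beside the Bred results. In the other strata same-numbered libraries did not all do so. Hepatocyte libraries with adjacent numbers in their titles did, however. Their correlations were 0.288 (WT 1 with KO 1), 0.305 (WT 3 with KO 2) and 0.367 (WT 4 with KO 3), and other pairs had -0.336 to 0.146. No fit was blocked by title number, so the hepatocyte tests leave this pairing out. Promoters were read from RefSeq on GRCm38.p6, which matched 26 of 30 members.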

Additional observations from a re-analysis of the deposited data

Results flagged for a closer look

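In groups of 4, a library was set apart when its gap to the nearest of the others exceeded 0.829 of the group's range. Chance alone sets apart about 1 in 20 groups, and 120 groups were tested, of which 5 met the rule. Lpin1 was at 92 FPKM in hepatocyte WT replicate 3 and at 5.37 to 7.69 FPKM in the other 3. Scd1 was at 588 FPKM in hepatocyte WT replicate 4 and at 138 to 176 FPKM in the others. Acsl5 and Khk were low in hepatocyte WT replicate 1, at 103 FPKM against 123 to 125 FPKM and at 241 FPKM against 268 to 271 FPKM. Acss2 was at 14.3 FPKM in tissue WT replicate 1 and at 37.5 to 38.9 FPKM in the other 3.

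The genotype effects of the 2 deletion methods differed for Lpin1, by 2.46 (edgeR adjusted p = 0.00891), and for Lpin2, by 0.88 (edgeR adjusted p = 0.0315), as Bred less Virus on a log2 scale. Lpin1 was lower in 3 of 3 Virus KO livers than in every Virus WT liver.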

How the results depend on the processing

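Of the single results recomputed under each alternative, 1040 kept their direction and side of the threshold, 99 lost and 37 gained a call, and none changed sign. Counts of members called moved as follows, and the cause was not tested. The share of all genes called moves between settings too. For DESeq2, no filter, limma and most single libraries left out it is not given here, so those counts are no result about the members. With DESeq2 the count was 1 for tissue, 1 for hepatocytes, 1 for their difference, 4 in Bred, 4 for Bred less Virus and 5 for Virus KO against Bred KO. Without the count filter it was 3 in Bred and 4 for Virus KO against Bred KO, and with limma 0 in Bred. A fit of 1 method alone called 0 in Bred and 6 in Virus, where it called 0% and 9.72% of all genes. The replicate block called 5 in Bred and 7 over both methods, and 0 in tissue, 0 in hepatocytes and 3 in Virus, where the numbers did not pair the libraries. With the block 12.4% of all genes were called in Bred, 12.5% over both methods, 0.008% in tissue, 0.216% in hepatocytes and 4.85% in Virus. For hepatocytes against tissue in WT the count was 2 with the length trend removed (20.2% of all genes) and 7 without tissue WT replicates 2 and 4 (38.0%). With TMM-scaled counts 17 members lay below in Bred WT (17.3% of all genes) and 1 above in Bred KO (31.9%). Leaving out 1 library in turn gave 0 to 6 members in tissue, 0 to 1 in hepatocytes, 0 to 1 for their difference, 1 to 5 for hepatocytes against tissue in WT, 8 to 15 in KO, 0 to 3 in Bred, 2 to 3 in Virus, 1 to 7 over both methods, 1 to 2 for Bred less Virus, 1 to 5 for Virus WT against Bred WT and 0 to 4 for Virus KO against Bred KO. Low counts limit Pnpla3, and 3 or 4 libraries a group limit the rest.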
